A study of Scyliorhinus canicula with 3 samples.

Results

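The nuclei described here are the cholinergic amacrine cell (AC) nuclei of the juvenile catshark retina, also called starburst-like. They were chosen by 3 genes: a nucleus was taken when it held at least 3 unique molecular identifiers (UMIs, each standing for 1 captured RNA molecule) summed over chata, slc5a7 and slc18a3a, with at least 2 of these 3 genes detected. A total of 547 of 20632 nuclei met this rule. The small-spotted catshark (Scyliorhinus canicula) was sampled as 3 untreated juvenile females of 11.0, 10.5 and 11.1 cm total length, with a single retina per animal frozen and its nuclei sequenced as 1 library per animal. All 3 belong to a single group, so there was no treatment to compare, and nuclei of 1 library are not replicates of each other; the animals are (n = 3). Only nuclei within the limits of UMIs, features and mitochondrial share that the study set for each library were used. Where 3 values are given in a row, they belong to libraries 1, 2 and 3 in that order.

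Acetylcholine in the vertebrate retina comes from a distinctive kind of AC. In mammals these cells are the starburst ACs, which also make GABA, sit as mirror populations on either side of the inner plexiform layer, and give direction-selective ganglion cells the inhibition that makes them respond to movement one way and not the other. A neuron that uses acetylcholine needs the enzyme that makes it, choline acetyltransferase, the transporter that loads it into vesicles, and the transporter that takes choline back up.

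Those roles belong to the 3 genes of the rule. On the catshark assembly sScyCan1.1, chata, the choline acetyltransferase gene, lies on chromosome 22 at 12211882 to 12254052. The gene slc18a3a, for the vesicular acetylcholine transporter, follows on the same chromosome at 12256681 to 12258881, with a gap of 2.63 kb. The choline transporter gene slc5a7, annotated as LOC119977537, is on chromosome 14 at 67603497 to 67615687.

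Cholinergic nuclei numbered 126 of 6053 in library 1, 92 of 4425 in library 2 and 329 of 10154 in library 3. Their share was 2.08% (95% exact binomial interval 1.74 to 2.47%) in library 1, 2.08% (1.68 to 2.54%) in library 2 and 3.24% (2.90 to 3.60%) in library 3. The interval of library 3 did not overlap the other two, and the mean was 2.47% ± 0.670% (SD, n = 3). These and all later intervals cover counting error only.

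Since the 3 genes chose the nuclei, their levels are given as a description. In CPM, the UMIs of a gene per 1000000 UMIs summed over a set of nuclei, chata stood at 903, 447 and 384 in cholinergic nuclei and at 9.98, 8.48 and 9.87 in all other nuclei. For slc5a7 the values were 1049, 385 and 515 CPM against 5.38, 2.93 and 9.87. For slc18a3a they were 407, 207 and 225 CPM against 5.94, 2.36 and 7.60. Library 1 was the highest for each of the 3 genes. The median nucleus held 16, 7 and 6 UMIs over the 3 genes, and 76.2%, 28.3% and 21.9% of the nuclei held 10 or more. All 3 genes were detected together in 94, 51 and 191 nuclei, which is 74.6%, 55.4% and 58.1%, and chata with slc5a7 alone made up most of the remaining nuclei in each library. Droplets at or below the library's median depth (355, 318 and 520 UMIs), which hold mostly free RNA, had chata at 58.8, 26.9 and 32.1 CPM, and 3, 0 and 0 of 35150, 26816 and 32253 such droplets met the gene part of the rule.

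A gene outside the rule shows where the threshold falls. In cholinergic nuclei with exactly 3 UMIs, of which there were 6, 12 and 44, megf11 stood at 661, 1406 and 936 CPM. Just outside, in nuclei with 2 UMIs from 2 of the genes, of which there were 18, 4 and 47, it stood at 13.5, 129 and 714 CPM. In library 3 the nuclei just outside the threshold were therefore close to those just inside, while in library 1 they were near the level of nuclei with no UMI of the 3 genes, 33.8 CPM. The values just outside rested on only 1 and 3 megf11 UMIs in libraries 1 and 2. Just inside in library 1 there were 24 UMIs, with megf11 detected in 33.3% of those 6 nuclei. Nuclei with 3 or more UMIs from a single gene, 8, 6 and 11 in number, were left out by the rule and held 1460, 819 and 1149 CPM of megf11. Nuclei with 10 or more UMIs held the most, 2557, 1544 and 1776 CPM.

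**Figure D1:**
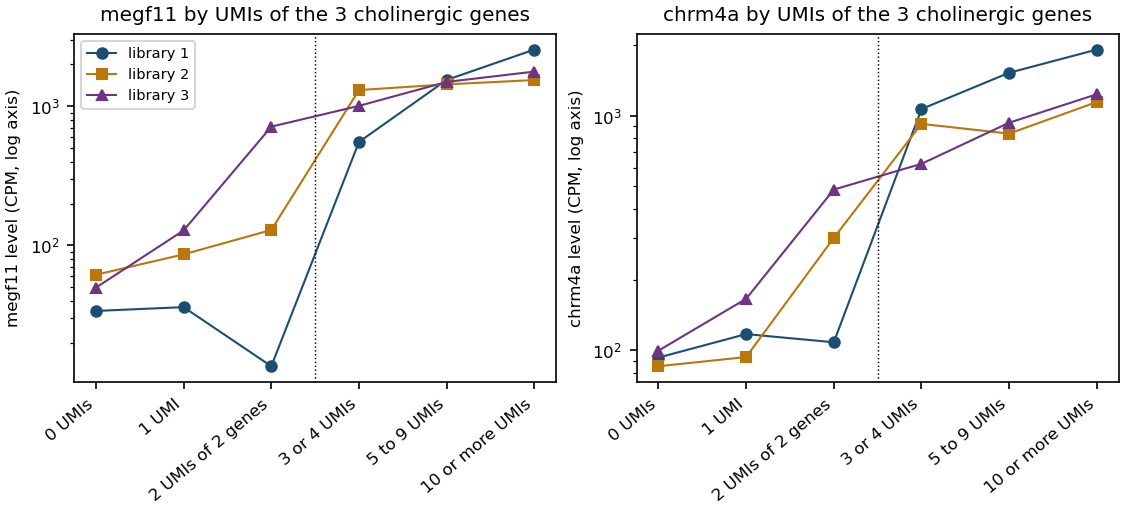
Level of megf11 and chrm4a (CPM, log axis) in nuclei sorted by their UMIs of chata, slc5a7 and slc18a3a, with 1 point per library and a dotted line where the rule begins. Nuclei with no UMI of the 3 genes sit at 33.8, 61.5 and 49.7 CPM of megf11, and those with 3 or 4 UMIs at 554, 1309 and 1007 CPM.

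Cholinergic nuclei were deep, but a rule of at least 3 UMIs itself favours deep nuclei. The AC sets used below were chosen by rules of the same kind, and all other nuclei were not. The median of cholinergic nuclei was 6623, 6396 and 4953 UMIs. It was 5552, 6283 and 4489 in GABAergic ACs, 4803, 4564 and 3381 in glycinergic ACs and 3344, 2130 and 1956 in all other nuclei. Libraries held 50691314 to 73310348 UMIs in all. Between pairs of libraries, 1 to 16 barcodes of nuclei were shared, none of them by 2 cholinergic nuclei. Scrublet, a doublet caller set to mark the top 4% of each library, marked 8.73%, 7.61% and 6.69% of cholinergic nuclei against 3.90%, 3.92% and 3.91% of all others. It marked 5.67%, 5.94% and 6.37% of GABAergic ACs and 3.94%, 5.56% and 5.62% of glycinergic ACs. Markers of other cells were present: a list of 8 rod genes summed to 3623, 5283 and 6291 CPM against 9510, 11430 and 11250 CPM in all other nuclei, and none of the genes matched for rod, bipolar, horizontal, ganglion, Müller glia, microglia or pigment epithelium lists was at 0. The part of doublets and of free RNA in the results below was not tested.

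The 3 comparisons were made with edgeR's quasi-likelihood test on counts summed per animal, with the animal as a block. The first set cholinergic nuclei against all other nuclei, the second against 2636 GABAergic AC nuclei (at least 3 UMIs over gad1, gad2 and slc32a1 with 2 of them detected, no cholinergic UMI) and the third against 922 glycinergic AC nuclei (at least 3 UMIs over slc6a5 and slc6a9 with both detected, no cholinergic UMI). Nuclei that met both AC rules were in neither AC set, whereas cholinergic nuclei were kept whether or not they met these rules. A gene was called higher or lower at an adjusted p under 0.05 and a log2 fold change of at least 1 in size. Against all other nuclei 449 of 18143 genes were higher (2.47%) and 413 lower (2.28%). Against GABAergic ACs 288 of 14370 were higher (2%) and 202 lower (1.41%), and against glycinergic ACs 358 of 11528 were higher (3.11%) and 263 lower (2.28%). The lower counts rested on single libraries: without library 1 the count against all other nuclei was 226 and without library 3 it was 739, against GABAergic ACs it was 88 without library 2 and 351 without library 3, and against glycinergic ACs it was 156 without library 2. Without the nuclei marked by Scrublet the counts against all other nuclei were 469 higher and 468 lower. All 3 comparisons use the same cholinergic sums, so a gene that is high in these sums can be called in each of them. In a sum, more nuclei with RNA of a gene and more RNA per nucleus cannot be told apart.

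The gene megf11 encodes a transmembrane protein with epidermal growth factor repeats, of a family with roles in the spacing of retinal neurons in mouse. It stood at 2331, 1445 and 1450 CPM in cholinergic nuclei, 29.4, 61.9 and 51.4 CPM in GABAergic ACs, 13.4, 43.7 and 42.9 CPM in glycinergic ACs and 36.6, 68.6 and 66.9 CPM in all other nuclei. The cholinergic values did not overlap those of any other set. The log2 fold change was 5.00 ± 0.327 (SE, n = 3; edgeR adjusted p = 1.56e-05) against all other nuclei, 5.28 ± 0.345 (edgeR adjusted p = 6.75e-05) against GABAergic ACs and 5.76 ± 0.413 (edgeR adjusted p = 5.02e-05) against glycinergic ACs. At least 1 megf11 UMI was seen in 92.1%, 97.8% and 97.6% of cholinergic nuclei, and in 8.49%, 14.6% and 14.2% of rod nuclei, whose median depth was 3525, 3123 and 2731 UMIs. With every nucleus thinned to 1000 UMIs, which left out 0, 136 and 368 rod nuclei and no cholinergic one, the shares were 82.5%, 80.4% and 73.6% in cholinergic nuclei and 1.93%, 3.68% and 4.88% in rods. The gene spans chromosome 12 at 2804159 to 3318911.

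Of 17 genes listed for starburst ACs of the mouse, 13 were matched and tested. Of these 7 were higher than in all other nuclei, 6 than in GABAergic ACs and 6 than in glycinergic ACs, where a further 2 were lower. The median log2 fold change of the list was 1.03, 0.79 and 0.94 in the 3 comparisons, against -0.057, -0.00323 and -0.0105 over all genes tested. With any 1 library left out, 6, 5 to 7 and 6 genes were higher. Of all genes tested 2.47%, 2% and 3.11% were higher and 2.28%, 1.41% and 2.28% lower in the 3 comparisons. These shares, and the medians over all genes, are the background for every list below.

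The list holds 3 transcription factors of mouse starburst ACs. The gene sox2, a high mobility group factor, stood at 249, 97.4 and 113 CPM in cholinergic nuclei against 15.2, 7.36 and 9.71 CPM in GABAergic ACs, 21.4, 7.78 and 10.9 CPM in glycinergic ACs and 21.0, 14.4 and 17.5 CPM in all other nuclei. Its log2 fold change was 3.09 ± 0.198 against all other nuclei (n = 3, edgeR adjusted p = 1.45e-05), 3.86 against GABAergic ACs (edgeR adjusted p = 4.37e-06) and 3.55 against glycinergic ACs (edgeR adjusted p = 3.56e-06). No cholinergic value of sox2 overlapped those of another set. The LIM homeobox gene isl1, annotated as LOC119962784, is active in mammals in starburst ACs, ON bipolar cells and ganglion cells. It stood at 228, 111 and 118 CPM in cholinergic nuclei, 20.6, 15.3 and 21.6 CPM in GABAergic ACs, 12.7, 10.7 and 19.3 CPM in glycinergic ACs and 29.9, 26.5 and 30.0 CPM in all other nuclei. The log2 fold changes of isl1 were 2.41 (edgeR adjusted p = 7.1e-05), 3.01 (edgeR adjusted p = 8.63e-05) and 3.37 (edgeR adjusted p = 7.54e-05) in the 3 comparisons. The zinc finger gene fezf1, which in mouse marks the starburst ACs of the ganglion cell layer, was low throughout. It reached 24.0, 8.35 and 20.4 CPM in cholinergic nuclei against 0.705, 1.15 and 1.53 CPM in all other nuclei, a log2 fold change of 4.06 ± 0.438 (edgeR adjusted p = 0.00029). In glycinergic ACs fezf1 had 1 UMI of 4553644, while cholinergic nuclei had 72 of 3786915.

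Other genes of the mouse list act at the membrane or in guidance. The small GTPase gene rnd3b was at 219, 164 and 188 CPM against 82.0, 51.3 and 81.5 CPM in all other nuclei (log2 fold change 1.49, edgeR adjusted p = 0.000135). The secreted guidance gene slit2 was at 1321, 757 and 824 CPM against 373, 298 and 335 CPM (log2 fold change 1.56, edgeR adjusted p = 0.000228). Both were also higher than in GABAergic and in glycinergic ACs, by 1.20 and 1.45 on the log2 scale for rnd3b and by 1.04 and 1.45 for slit2. The call of slit2 against GABAergic ACs was lost without library 1. The genes sema6a and calb2a, for a semaphorin and for calretinin, went the other way against glycinergic ACs, with log2 fold changes of -1.23 and -1.34, calls that were lost without library 1 and without library 2 in turn. The paralogue of megf11, megf10, takes part in mouse starburst spacing. It stood at 48.1, 64.0 and 32.2 CPM against 15.7, 54.4 and 36.3 CPM in all other nuclei. Those ranges overlapped, and megf10 passed no test (edgeR adjusted p = 0.332 against all other nuclei, 0.235 against GABAergic and 0.075 against glycinergic ACs).

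**Figure D2:**
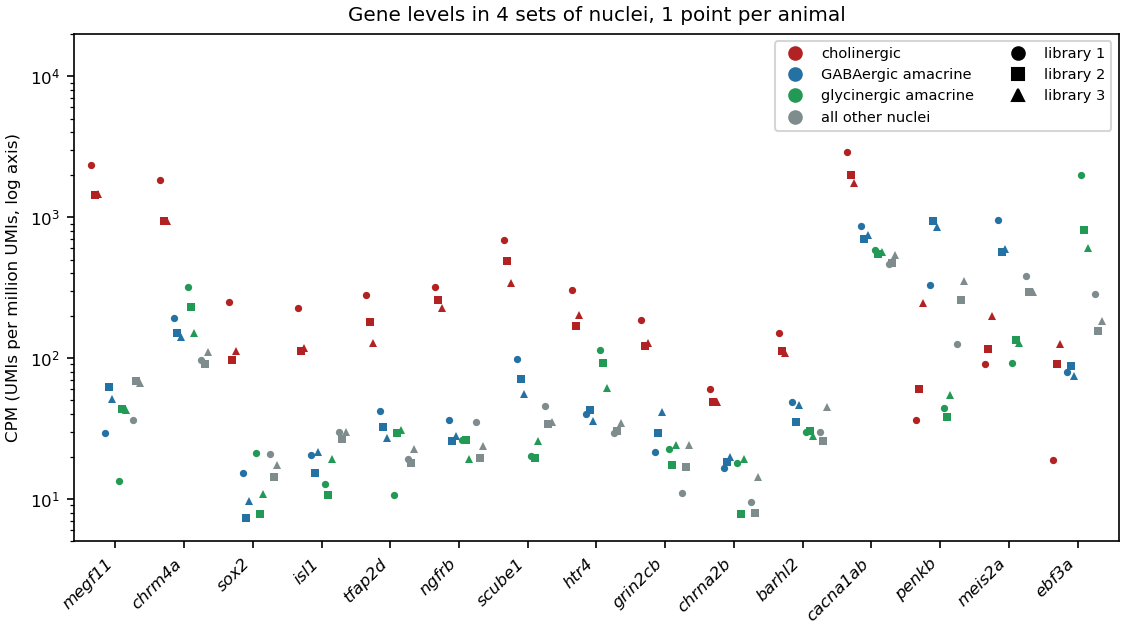
Level of 15 genes (CPM, log axis) in cholinergic nuclei, GABAergic ACs, glycinergic ACs and all other nuclei, with 1 point per animal (circle, square and triangle for libraries 1, 2 and 3). For megf11 the cholinergic points sit between 1445 and 2331 CPM and all others at or below 68.6 CPM, while for penkb, meis2a and ebf3a the highest points belong to another set.

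Some non-coding genes near sox2 and isl1 were also higher, while the lncRNA gene LOC119976280, 790.4 kb from sox2, was not called against all other nuclei (log2 fold change 0.73, edgeR adjusted p = 0.582) and LOC119976745 and LOC119963714 were too low to be tested. The largest log2 fold change among called genes with a mean of at least 50 CPM belonged, in each comparison, to LOC119976553, a long non-coding RNA gene (lncRNA) on chromosome 13 at 122462929 to 122489147. It is the closest annotated lncRNA to sox2 (122558635 to 122567234), 69.5 kb away. Its level was 95.1, 64.0 and 40.7 CPM in cholinergic nuclei, 0.184, 0.307 and 0.410 CPM in GABAergic ACs and 0.668, 1.02 and 1.72 CPM in all other nuclei. The log2 fold change was 5.83 ± 0.429 against all other nuclei (n = 3, edgeR adjusted p = 3.14e-05) and 7.59 ± 0.337 against GABAergic ACs (edgeR adjusted p = 6.95e-06). In glycinergic ACs LOC119976553 had 0 UMIs of 4553644, which allows up to 0.659 CPM when 3 counts are taken as the limit over the group, so its level was at least 89.4-fold higher in cholinergic nuclei.

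Near isl1, on chromosome 3 at 89130053 to 89142104, the lncRNA LOC119962783 lies 222 kb away and stood at 378, 307 and 200 CPM against 43.3, 30.0 and 33.8 CPM in all other nuclei. It was higher in each comparison, with log2 fold changes of 3.08, 3.54 and 3.75 (edgeR adjusted p = 7.81e-06, 2.35e-05 and 2.06e-05). LOC119962786, a lncRNA 1.96 kb from isl1 that was named after its values were seen, stood at 44.9, 18.1 and 17.1 CPM and was higher by 2.37, 2.78 and 3.88 on the log2 scale. LOC119962788, a lncRNA 1381 kb away picked in the same way, stood at 19.9, 9.74 and 7.58 CPM and was higher than in all other nuclei by 2.56 and than in GABAergic ACs by 3.03, with no test against glycinergic ACs. Tested protein-coding genes among the nearest annotated neighbours were far away and were not called in any comparison. They were dnajc19, fxr1 and ccdc39, 1219, 1271 and 1534 kb from sox2, and si:dkey-3h3.3 and itga1, 527 and 1723 kb from isl1. Around megf11 the genes rab11a, dis3l, dennd4a and tipin were not called either, whereas slc24a1, a rod exchanger gene 277 kb away, was lower than in all other nuclei by 1.13 on the log2 scale, a call lost without library 1.

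**Figure D3:**
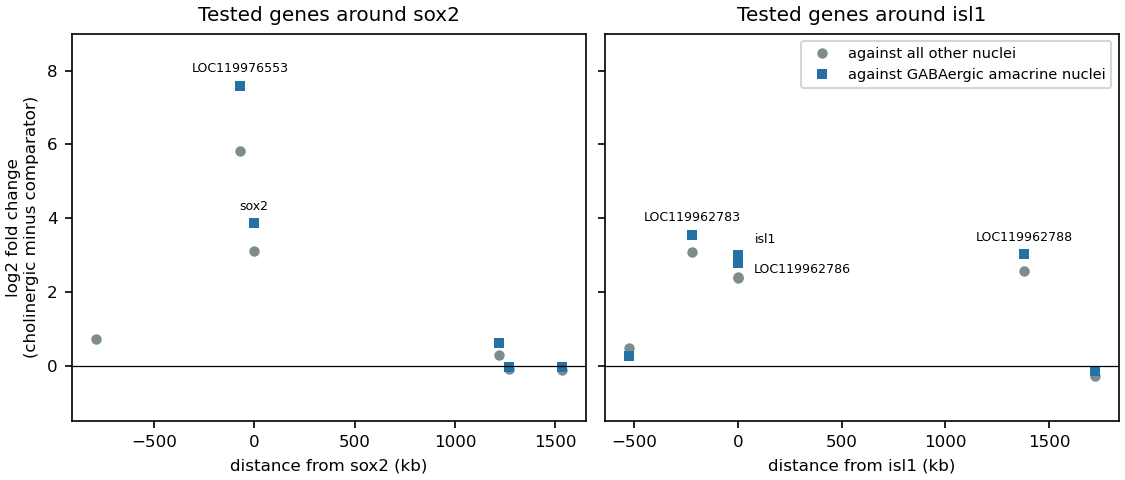
Log2 fold change of tested genes by their distance (kb) from sox2 and from isl1, against all other nuclei (grey circles) and against GABAergic ACs (blue squares). The points of LOC119976553 lie at 5.83 and 7.59 and those of LOC119962783 at 3.08 and 3.54.

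Genes of cholinergic transmission beyond the rule were mixed. Of 29 listed genes 15 were matched, 3 of them those of the rule, and 11 were tested: 5 were higher than in all other nuclei and none lower. Against GABAergic ACs 2 of 11 were higher and 1 lower, and against glycinergic ACs 3 of 9 were higher and 1 lower. The list's median log2 fold change was 0.91, 0.15 and 0.76. The count of higher genes against all other nuclei was 2, 3 and 4 without libraries 1, 2 and 3, and 1 gene was lower without library 3.

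The muscarinic receptor gene chrm4a, for an inhibitory receptor that in mammals acts as an autoreceptor on cholinergic cells, was the most abundant of these. It stood at 1820, 945 and 936 CPM in cholinergic nuclei, 191, 150 and 141 CPM in GABAergic ACs, 318, 229 and 151 CPM in glycinergic ACs and 97.3, 90.2 and 111 CPM in all other nuclei. The log2 fold change was 3.63 ± 0.232 (edgeR adjusted p = 1.45e-05), 2.96 ± 0.164 (edgeR adjusted p = 2.35e-05) and 2.45 ± 0.164 (edgeR adjusted p = 3.49e-05), and the cholinergic values did not overlap those of any other set. The nicotinic subunit gene chrna2b was at 60.6, 48.7 and 48.8 CPM against 9.57, 7.97 and 14.2 CPM in all other nuclei and was higher in each comparison (log2 fold changes 2.37, 1.59 and 1.78). The membrane anchor gene of acetylcholinesterase, prima1, was at 200, 128 and 118 CPM against 57.4, 62.5 and 71.7 CPM, and it was higher than in all other nuclei and than in glycinergic ACs by 1.25 in both cases. Without library 1 the call of prima1 against all other nuclei was lost.

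The enzyme gene ache itself was low, at 14.6, 19.5 and 24.6 CPM against 4.56, 13.0 and 13.3 CPM, with a log2 fold change of 1.06 (edgeR adjusted p = 0.0432). The muscarinic receptor gene chrm2a, at 30.3, 16.7 and 28.4 CPM against 10.9, 11.3 and 16.6 CPM, had 1.03 (edgeR adjusted p = 0.0295). Each of these 2 calls was lost when any 1 library was left out. The subunit gene chrna8, of a nicotinic receptor known from chicken, was at 26.1, 62.6 and 117 CPM against 156, 165 and 184 CPM in GABAergic ACs and 148, 185 and 171 CPM in glycinergic ACs. It was lower by 1.27 and 1.29 on the log2 scale, and both calls were lost without library 1 and without library 2.

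GABA is the co-transmitter of starburst ACs in mammals. The glutamate decarboxylase gene gad1 stood at 2318, 1591 and 1701 CPM in cholinergic nuclei against 453, 322 and 468 CPM in all other nuclei, a log2 fold change of 2.24 ± 0.164 (n = 3, edgeR adjusted p = 3.14e-05). In GABAergic ACs, which gad1 helped to choose, it was at 1209, 889 and 1027 CPM, and no test was made there. The same shallow droplets held 1405, 437 and 474 CPM of gad1. Thinned to 1000 UMIs, 83.3% (75.7 to 89.4%), 77.2% (67.2 to 85.3%) and 76.6% (71.6 to 81.1%) of cholinergic nuclei held a gad1 UMI, against 25.1%, 15.8% and 23.0% of rods. The other decarboxylase gene, gad2, did not pass the test against all other nuclei (log2 fold change -0.03, edgeR adjusted p = 0.952), at 165, 89.0 and 164 CPM against 152, 116 and 174 CPM. Thinned gad2 shares were 11.1%, 6.52% and 12.5% in cholinergic nuclei and 7.25%, 6.01% and 9.90% in rods, so that rods fell inside the intervals of the cholinergic shares (6.21 to 17.9%, 2.43 to 13.7% and 9.09 to 16.5%). The vesicular GABA transporter gene slc32a1 was not called against all other nuclei either. Its thinned shares were 13.5%, 4.35% and 12.2% in cholinergic nuclei and 4.56%, 2.57% and 5.88% in rods.

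Of 35 listed genes of GABA and glycine transmission 19 were matched and tested against all other nuclei, with 5 higher and none lower. Against GABAergic ACs 3 of 14 were higher and 2 lower, and against glycinergic ACs 2 of 13 were higher and 1 lower, with medians of 0.56, 0.26 and -0.36. With 1 library left out, 0 to 2 genes were lower than in all other nuclei and than in GABAergic ACs, and 1 or 2 were higher than in glycinergic ACs. The GABA transporter gene slc6a1b, which clears GABA from the synapse, was at 1183, 1331 and 974 CPM, a range that overlapped the 1057, 1125 and 1041 CPM of GABAergic ACs (log2 fold change 0.18, edgeR adjusted p = 0.525) and above the 219, 287 and 367 CPM of glycinergic ACs (2.06, edgeR adjusted p = 0.000279). Its call against all other nuclei, 1.09, was lost without library 1 and without library 2.

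Receptor subunit genes for GABA and glycine differed in which set they exceeded. For gabrb1, a beta subunit of the GABA-A receptor, the levels were 365, 262 and 278 CPM in cholinergic nuclei, 120, 140 and 149 CPM in GABAergic ACs and 250, 225 and 194 CPM in glycinergic ACs. The log2 fold changes of gabrb1 were 1.81, 1.22 and 0.48, the last not called. For gabrb2a they were 1.72, 1.26 and 0.32, again without a call against glycinergic ACs. Without library 1 the call of gabrb1, and without library 2 that of gabrb2a, against GABAergic ACs was lost. The glycine receptor gene glra1 lay between the other ACs, at 189, 167 and 163 CPM against 66.6, 65.6 and 88.2 CPM in GABAergic ACs (log2 fold change 1.31, edgeR adjusted p = 0.00148) and 611, 312 and 398 CPM in glycinergic ACs (-1.26, edgeR adjusted p = 0.000915). The gene glra2 was lower than in GABAergic ACs by 1.35, a call lost without library 1 and without library 2.

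Among glutamate receptor genes, through which ACs receive bipolar cell input, 11 of 26 listed were matched, and 3 of 11 were higher than in all other nuclei with none lower. Against GABAergic ACs 1 of 10 was higher and 1 lower, and against glycinergic ACs 3 of 10 were higher and 2 lower. The medians were 0.64, 0.13 and 0.56. With 1 library left out, 0 or 1 gene of the list was lower in each comparison. The NMDA receptor subunit gene grin2cb stood at 187, 121 and 128 CPM in cholinergic nuclei, 21.5, 29.4 and 41.3 CPM in GABAergic ACs, 22.7, 17.5 and 24.2 CPM in glycinergic ACs and 11.1, 16.8 and 24.1 CPM in all other nuclei. It was the only gene of the list called higher in all 3 comparisons, with log2 fold changes of 3.16 ± 0.282 (edgeR adjusted p = 9.71e-05), 2.31 ± 0.262 (edgeR adjusted p = 0.00134) and 2.77 ± 0.173 (edgeR adjusted p = 2.74e-05). The subunit gene grin2aa was far more abundant, at 845, 548 and 522 CPM, and was higher than in all other nuclei by 1.89 and than in glycinergic ACs by 1.18. The AMPA receptor gene gria1a was higher by 1.22 than in all other nuclei. Against glycinergic ACs the metabotropic receptor gene grm5b was higher by 1.63 and grm3 had a log2 fold change of -2.57, at 19.9, 15.3 and 23.7 CPM against 228, 114 and 85.4 CPM.

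Of 42 listed genes for amine, peptide and purine receptors 23 were matched and 17, 10 and 7 tested in the 3 comparisons, with 0, 2 and 1 lower and medians of -0.26, -0.59 and -0.55. Only htr4, for a serotonin receptor that raises cyclic AMP, was called higher, in all 3. It stood at 304, 168 and 200 CPM in cholinergic nuclei, 39.8, 42.6 and 35.8 CPM in GABAergic ACs, 114, 92.3 and 61.7 CPM in glycinergic ACs and 29.5, 30.5 and 34.4 CPM in all other nuclei. The log2 fold change was 2.87 (edgeR adjusted p = 2e-05), 2.58 (edgeR adjusted p = 0.000109) and 1.41 (edgeR adjusted p = 0.000768), with no overlap of the sets. The dopamine receptor gene drd2a was lower than in glycinergic ACs, at 0, 5.56 and 12.8 CPM against 66.7, 61.2 and 41.5 CPM, and this call was lost without library 2 and with DESeq2.

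Among transcription factors, 68 of 93 listed genes were matched. Of 63 tested against all other nuclei 5 were higher and 12 lower, of 56 against GABAergic ACs 5 were higher and 7 lower, and of 47 against glycinergic ACs 9 were higher and 12 lower. The medians were -0.67, -0.29 and -0.25. Each comparison called sox2, isl1, fezf1, tfap2d and barhl2 higher. The activator protein gene tfap2d, of a family found in ACs of other vertebrates, stood at 280, 180 and 128 CPM in cholinergic nuclei, 41.9, 32.2 and 26.9 CPM in GABAergic ACs, 10.7, 29.2 and 31.1 CPM in glycinergic ACs and 19.2, 18.1 and 22.7 CPM in all other nuclei. Its log2 fold change was 3.28 ± 0.239 (edgeR adjusted p = 3.14e-05), 2.58 ± 0.144 (edgeR adjusted p = 2.35e-05) and 3.004 ± 0.375 (edgeR adjusted p = 0.000928). The homeobox gene barhl2, which in mouse takes part in AC subtype formation, was at 151, 113 and 108 CPM against 48.5, 35.3 and 46.8 CPM in GABAergic ACs and 30.0, 30.1 and 28.1 CPM in glycinergic ACs, higher by 1.56 and 2.11. Against glycinergic ACs tfap2b-l, zfhx4 and sox5 were also higher, by 1.40, 1.62 and 1.45. The AC gene pax6 was at 553, 337 and 300 CPM and was not called in any comparison.

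Several other factors were lower. The homeobox gene meis2a stood at 90.9, 116 and 199 CPM against 958, 564 and 595 CPM in GABAergic ACs (log2 fold change -2.29, edgeR adjusted p = 0.00179). Against glycinergic ACs, at 92.1, 133 and 129 CPM, meis2a was not called. The gene ebf3a stood at 18.8, 90.4 and 126 CPM against 1990, 814 and 606 CPM in glycinergic ACs (log2 fold change -3.64, edgeR adjusted p = 0.00486), a call lost without library 2. Lower than in glycinergic ACs were also neurod6a by 3.02, ebf1a by 2.52, prox1a by 1.97, a call DESeq2 did not make, and nfia by 1.43. The bipolar cell gene vsx1 was lower than in all other nuclei by 1.36. The calls of meis2a, prox1a and nfia against all other nuclei were lost without library 1 and without library 2, and the count of lower factors there was 4, 6 and 18 without libraries 1, 2 and 3, against GABAergic ACs 4, 3 and 8.

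Voltage-gated and other channels were split: of 34 tested genes, out of 66 listed, 4 were higher and 4 lower than in all other nuclei. Against GABAergic ACs 3 of 33 were higher and 5 lower, and against glycinergic ACs 4 of 31 were higher and 3 lower, with medians of -0.21, -0.56 and -0.35. Calcium channel genes were called in both directions. The P/Q-type channel gene cacna1ab, of the kind that drives transmitter release, stood at 2881, 1984 and 1732 CPM against 869, 705 and 744 CPM in GABAergic ACs, 585, 543 and 569 CPM in glycinergic ACs and 465, 472 and 535 CPM in all other nuclei. It was higher by 2.20 ± 0.2 (edgeR adjusted p = 0.000114), 1.56 ± 0.144 (edgeR adjusted p = 0.000569) and 1.97 ± 0.174 (edgeR adjusted p = 0.000156). The T-type channel gene cacna1g, for a channel opened near rest, was at 1624, 1164 and 984 CPM and was higher by 2.31, 1.50 and 1.32. The auxiliary subunit gene cacna2d3a was higher than in all other nuclei (1.47) and than in GABAergic ACs (1.58), but at 918, 627 and 655 CPM it was below the 1462, 1039 and 902 CPM of glycinergic ACs, without a call. Another T-type channel gene, cacna1ha, was lower than in GABAergic ACs, at 20.9, 156 and 176 CPM against 478, 487 and 434 CPM (log2 fold change -2.08, edgeR adjusted p = 0.0226), a call lost without library 2, with DESeq2 and without the animal block. The cation channel gene trpc4b was higher than in all other nuclei (2.12) and than in glycinergic ACs (2.15). Among potassium channel genes kcnip4 was lower than in GABAergic ACs, at 41.8, 118 and 241 CPM against 747, 659 and 688 CPM (log2 fold change -2.47, edgeR adjusted p = 0.00525), a call lost without library 2. Without libraries 1, 2 and 3 in turn, the count of lower channels was 2, 4 and 7 against all other nuclei, 4, 0 and 10 against GABAergic ACs and 2, 1 and 8 against glycinergic ACs.

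Adhesion and guidance genes, which decide where neurites stratify and with which partners they connect, were matched for 52 of 101 listed. Of these 10 were higher than in all other nuclei and 3 lower, 6 were higher than in GABAergic ACs and 4 lower, and 4 of 50 were higher than in glycinergic ACs and 7 lower. The medians were -0.02, -0.24 and -0.17. Besides megf11 and slit2, the postsynaptic adhesion gene lrrtm1 was at 125, 77.9 and 107 CPM against 38.0, 61.3 and 53.6 CPM in GABAergic ACs (log2 fold change 1.14, edgeR adjusted p = 0.0184), a call lost without library 1. The sidekick gene sdk2b, for a homophilic adhesion molecule of the inner plexiform layer in mouse, was at 2425, 1572 and 1477 CPM against 795, 1051 and 780 CPM in GABAergic ACs and 711, 899 and 799 CPM in glycinergic ACs, higher by 1.12 and 1.20. Both sdk2b calls were lost without library 1. The neuroligin gene nlgn1 was lower than in both AC sets, by 1.72 and 1.64, and the netrin receptor gene unc5a by 2.08 and 1.42. Both calls of nlgn1 and both of unc5a were lost without library 2, and that of unc5a against glycinergic ACs also without library 1. Neither unc5a call was made by DESeq2. Without libraries 1, 2 and 3 in turn, the count of higher adhesion genes was 4, 7 and 10 against all other nuclei, 2, 6 and 7 against GABAergic ACs and 3, 7 and 6 against glycinergic ACs. The count of lower ones was 1, 3 and 9 against all other nuclei, 4, 1 and 9 against GABAergic ACs and 4, 4 and 10 against glycinergic ACs.

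Of the vesicle and release genes 25 of 57 listed were matched, with 1 higher and 1 lower against all other nuclei, 1 and 1 against GABAergic ACs, and 1 and 4 against glycinergic ACs, the last being 1 without library 2. The medians were -0.16, -0.28 and -0.21. A count of 1 in a list of this size lies near the 1.41 to 3.11% called over all genes tested. The higher gene was in each case sv2ca, for a vesicle glycoprotein. It stood at 1031, 733 and 670 CPM against 164, 244 and 244 CPM in GABAergic ACs, 177, 200 and 295 CPM in glycinergic ACs and 286, 348 and 327 CPM in all other nuclei, with log2 fold changes of 1.39, 1.98 and 1.90. The membrane fusion gene snap25a was lower than in all other nuclei by 1.1, a call lost without library 1 and without library 2. None of 12 neuropeptide and granin genes tested against all other nuclei was higher and 2 were lower, a count of 0 without library 1 and without library 2. The same counts, none higher and 2 lower, held for 11 genes against GABAergic ACs and 8 against glycinergic ACs, and the medians were -0.36, -0.27 and 0.33. The enkephalin precursor gene penkb stood at 36.6, 59.8 and 248 CPM against 327, 931 and 855 CPM in GABAergic ACs (log2 fold change -2.73, edgeR adjusted p = 0.0021). The granin gene scg2a was lower by 1.84 than in GABAergic ACs and by 1.72 than in glycinergic ACs.

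**Figure D4:**
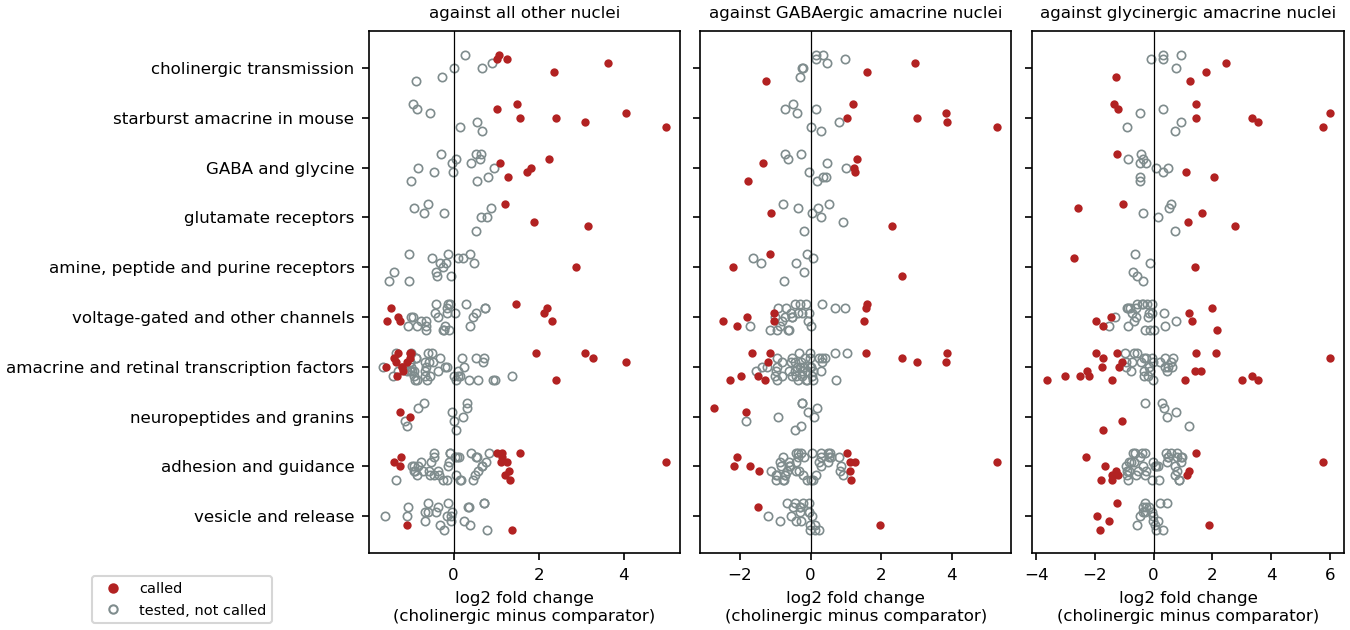
Log2 fold change of the tested genes of 10 lists against all other nuclei, GABAergic ACs and glycinergic ACs, with called genes in red and genes not called as open points. Starburst and cholinergic lists have medians of 1.03 and 0.91 against all other nuclei, and the transcription factor list -0.67. The rightmost point against glycinergic ACs is fezf1, which had 1 UMI in those nuclei.

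Other genes outside these lists were named for their large fold changes. At 67.9, 43.1 and 56.4 CPM against 0.631, 1.28 and 2.37 CPM in all other nuclei, LOC119953497 was higher by 5.40 (edgeR adjusted p = 3.14e-05), 5.99 (edgeR adjusted p = 7.92e-06) and 5.93 (edgeR adjusted p = 6.56e-05). The extracellular matrix gene adamtsl3 stood at 634, 392 and 387 CPM against 38.9, 38.0 and 33.6 CPM in GABAergic ACs, 26.0, 45.7 and 38.5 CPM in glycinergic ACs and 40.8, 31.9 and 35.0 CPM in all other nuclei. It was higher by 3.75 ± 0.162 (edgeR adjusted p = 2.04e-06), 3.73 ± 0.170 (edgeR adjusted p = 6.98e-06) and 3.71 ± 0.265 (edgeR adjusted p = 5.02e-05). The secreted protein gene scube1 was at 687, 484 and 342 CPM and was higher by 3.74, 2.81 and 4.49. The neurotrophin receptor gene ngfrb, for a p75-type receptor, was at 317, 257 and 227 CPM against 35.3, 19.4 and 23.9 CPM in all other nuclei (log2 fold changes 3.44, 3.23 and 3.55). The hyaluronidase gene cemip2 was at 130, 86.3 and 81.5 CPM (3.62, 3.73 and 3.98), the arginine methyltransferase gene prmt8b at 88.8, 153 and 78.6 CPM (3.95, 3.35 and 4.19) and the phospholipase C gene plch1 at 661, 412 and 290 CPM (3.12, 3.25 and 2.79). None of these calls was lost when any 1 library was left out. The pigment cell gene dct, a marker of pigment epithelium here, stood at 11.5, 29.2 and 15.6 CPM against 2.23, 4.78 and 6.79 CPM in all other nuclei. It was higher than in all other nuclei by 2.005 (edgeR adjusted p = 0.00545), than in GABAergic ACs by 2.12 (edgeR adjusted p = 0.0107) and than in glycinergic ACs by 1.63 (edgeR adjusted p = 0.0166), and each of these calls was lost without library 2. The 4 matched pigment epithelium genes together summed to 15.7, 37.6 and 28.4 CPM against 15.0, 28.2 and 38.7 CPM in all other nuclei, and the part of such cells or their RNA in the results was not tested.

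The most abundant of the called genes fell outside the naming rule and was picked after its values were seen. LOC119977407, a protein-coding gene on chromosome 14 at 150228532 to 151038476, stood at 15190, 8643 and 8438 CPM in cholinergic nuclei, 1422, 1271 and 1318 CPM in GABAergic ACs, 2256, 2254 and 1610 CPM in glycinergic ACs and 932, 975 and 1144 CPM in all other nuclei. It was higher by 3.42, 3.04 and 2.41 on the log2 scale (edgeR adjusted p = 3.14e-05, 4.56e-05 and 0.000139). Thinned to 1000 UMIs, 96.8%, 98.9% and 99.4% of cholinergic nuclei held at least 1 of its UMIs, and 13.8%, 22.8% and 29.3% of rods. The shares were 38.9%, 45.9% and 51.2% in GABAergic ACs and 52.7%, 66.5% and 56.4% in glycinergic ACs, so the gene was common in other ACs too. The RNA-binding gene khdrbs2, picked in the same way, was at 1906, 858 and 1080 CPM and was higher by 2.95, 1.98 and 3.08.

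Called genes that were lower than in all other nuclei in all 3 animals, and had a mean of at least 50 CPM there, were ranked. The 10 of these with the largest negative log2 fold changes were high in the other nuclei of library 1 alone. LOC119954095, for example, stood at 19.9, 0 and 0 CPM in cholinergic nuclei and 547, 3.12 and 0.130 CPM in all others, and the plakin gene ppl at 14.6, 2.78 and 1.90 CPM against 152, 5.61 and 2.34 CPM. The call of ppl was lost without library 1, and that of LOC119954095 with DESeq2. Against glycinergic ACs the phosphatase gene ptprt was lower in every animal, at 192, 302 and 492 CPM against 4201, 2434 and 2058 CPM (log2 fold change -3.09, edgeR adjusted p = 0.00075).

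Clustering of the cholinergic nuclei alone, with the libraries centred, gave 6 subsets of 181, 152, 65, 57, 50 and 42 nuclei. They come from the same counts as their genes and are described without a test. Subsets 1, 3 and 6 together held 101, 43 and 144 nuclei, which is 80.2%, 46.7% and 43.8% of the cholinergic nuclei. Their megf11 level was 2699, 2037 and 2592 CPM, against 1137, 1187 and 1030 CPM in subsets 2, 4 and 5. The level of chrm4a was 2089, 1529 and 1577 CPM against 946, 690 and 700 CPM, that of gad1 2598, 2668 and 2529 CPM against 1408, 1121 and 1396 CPM, and that of chata 1038, 737 and 659 CPM against 462, 320 and 283 CPM. Since chata is a gene of the rule, its values are a description only. A minimum of 3 UMIs lets deeper nuclei in at a lower CPM. Median depth was 4494 UMIs in subsets 1, 3 and 6 and 7533 UMIs in subsets 2, 4 and 5. The subsets were grouped in this way after the clustering. Scrublet marked 1.39% of the nuclei of subsets 1, 3 and 6 and 13.9% of those of subsets 2, 4 and 5. The rod list summed to 2852, 2943 and 3322 CPM in the former and 6129, 6305 and 7382 CPM in the latter. Of the 956998, 718849 and 2111068 UMIs in the cholinergic sums, subsets 2, 4 and 5 supplied 225145, 500372 and 1543613. In libraries 2 and 3 most UMIs of the sums thus came from these subsets, and their part in the calls above was not tested.

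Subset 2, with 9, 22 and 121 nuclei, was led by adarb2 at 1310, 407 and 1112 CPM and held ptprt at 1472, 546 and 725 CPM, kcnip4 at 274, 254 and 362 CPM, meis2a at 396, 198 and 311 CPM and penkb at 132, 37.4 and 396 CPM, genes of other ACs. In library 2 penkb was higher in subset 4, at 174 CPM, than in subset 2. The median depth of subset 2 was 9414 UMIs. Subset 4, with 8, 15 and 34 nuclei, held the glutamate transporter gene slc1a6 at 999, 658 and 430 CPM, with the Müller glia genes rlbp1b at 288, 434 and 129 CPM and glul at 346, 954 and 232 CPM. Subset 5, with 8, 12 and 30 nuclei, held the photoreceptor genes aipl1 at 228, 212 and 317 CPM and gucy2f at 282, 307 and 467 CPM. Rod RNA was not particular to subset 5. The rod list summed to 8431, 10270 and 13560 CPM there and to 9395, 5125 and 16650 CPM in subset 4. Scrublet marked 11.8%, 14% and 20% of the nuclei of subsets 2, 4 and 5. The part of other cells' RNA in these 3 subsets, and in the levels of meis2a, penkb, kcnip4 and ptprt given above, was not tested.

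Subsets 1, 3 and 6 differed among themselves in genes of the starburst list. Subset 1, with 57, 27 and 97 nuclei, held sox2 at 376, 194 and 219 CPM, LOC119976553 at 132, 165 and 91.8 CPM, adamtsl3 at 946, 603 and 819 CPM and fezf1 at 41.5, 14.4 and 56.1 CPM, and its rnd3b was low at 14.6, 35.9 and 86.7 CPM. Subset 3, with 23, 10 and 32 nuclei, had the highest megf11, at 3700, 2925 and 4116 CPM, with rnd3b at 342, 353 and 550 CPM, tfap2d at 397, 510 and 347 CPM and sox6, a further factor of the sox family, at 315, 177 and 339 CPM. In subset 3, sox2 stood at 397, 137 and 313 CPM and LOC119976553 at 116, 137 and 84.7 CPM. With adamtsl3 there at 821, 923 and 889 CPM, these genes did not set subsets 1 and 3 apart.

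Subset 6, with 21, 6 and 15 nuclei, held no UMI of sox2, of LOC119976553 or of fezf1 among 260899 UMIs, which allows up to 11.5 CPM over the subset and 17.1, 107 and 52.4 CPM in the single libraries. Its isl1 stood at 365, 71.1 and 297 CPM, its megf11 at 2153, 1885 and 2377 CPM and its rnd3b at 598, 285 and 594 CPM. Its megf10 stood at 188, 213 and 105 CPM, with LOC119953497 at 216, 213 and 192 CPM, LOC119962794 at 211, 213 and 157 CPM and the collagen gene col1a2 at 256, 35.6 and 175 CPM, while adamtsl3 was at 74.1, 0 and 35.0 CPM. In library 2 the values of megf10, LOC119953497 and LOC119962794 each rested on 6 UMIs and that of col1a2 on 1. Subset 4 held megf10 at 188 CPM in that library, on 26 UMIs. No nucleus of subset 6 was marked by Scrublet. In library 2, where its 6 nuclei held 28119 UMIs, the limit of 107 CPM lay below the sox2 level of subset 1 (194 CPM) and subset 3 (137 CPM). For fezf1 the limits set subset 6 apart less. In library 2 subsets 1 and 3 were at 14.4 and 0 CPM, below the limit. In library 3 they were at 56.1 and 25.4 CPM against a limit of 52.4 CPM. The clustering was repeated without the 3 rule genes and 14 genes named for the subsets, sox2, fezf1 and megf10 among them. Of these 17 genes only 12 had been clustering features. LOC119953497 and LOC119962794, also named here for subset 6, were not left out. In that clustering 40 nuclei of subset 6 and no other nucleus again formed a subset. Its 0 UMIs of sox2, LOC119976553 and fezf1 follow from this, since no nucleus of subset 6 held any. At a lower resolution subset 6 was joined with subset 3 in 1 group of 105 nuclei.

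**Figure D5:**
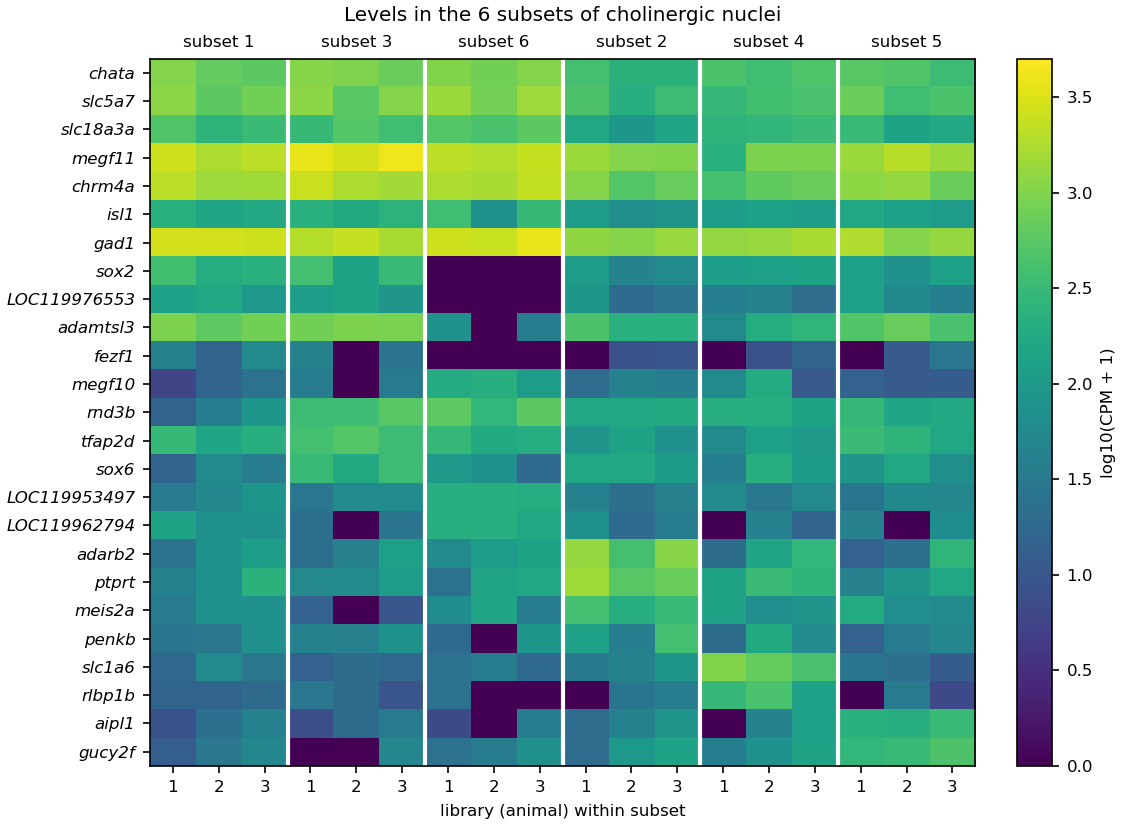
Level of 25 genes, as log10(CPM + 1), in subsets 1, 3, 6, 2, 4 and 5 of the cholinergic nuclei, with 1 column per library. Subset 6 is at 0 for sox2, LOC119976553 and fezf1 in every library, while its megf11 is at 2153, 1885 and 2377 CPM. The gene fezf1 is also at 0 in library 2 of subset 3 and in library 1 of subsets 2, 4 and 5.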

How the data were processed

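Nuclei of 3 retinas, 1 per animal, were sequenced with a 10x 3' kit. The authors aligned the reads with STAR 2.7.10a to sScyCan1.1 and deposited raw UMI counts per barcode and gene, with intronic reads counted and reads unique to a gene only. Reads of overlapping or near-identical genes could therefore be lost or misplaced, and nuclear RNA favours long genes with introns. Barcodes needed 200 features, under 10% mitochondrial UMIs and the study's depth limits for their library. Mitochondrial features were then left out, and no doublet was removed. The study ran the doublet caller DoubletFinder on each sample, with an assumed doublet rate of 4%. It also took out 3 clusters that came largely from 1 sample and lacked retinal marker genes. Neither step was made here, so the nuclei of these clusters were not taken out of the 20632. Their part in the shares and in the calls against all other nuclei was not tested.

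Counts were summed per library and set and tested with edgeR 4.0.16 in R 4.3.3 (TMM, genes filtered by expression, Benjamini-Hochberg over all genes tested). The genes that chose either set were left out of the comparison concerned. Same-numbered sums came from the same animal, and their deviations correlated at 0.575 to 0.689, so the animal was a block. Subsets came from scanpy 1.11.5 (2000 features, 20 components, 15 neighbours, resolution 0.5). DESeq2 1.42.0 was an alternative. Genes were named by list, or as the 15 highest and 10 lowest called folds of each comparison with a mean of 50 CPM and 1 direction in all 3 animals; symbols followed the study's table and RefSeq. Nuclei, lists and named genes were chosen with earlier results of these data known.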

Additional observations from a re-analysis of the deposited data

Results flagged for a closer look

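Barcodes outside the limits for nuclei, which no comparison used, also met the gene part of the cholinergic rule. Above the upper limits of depth there were 19 in library 1 (of 263 such barcodes, 7.22%), 25 in library 2 (of 177, 14.1%) and 57 in library 3 (of 201, 28.4%). They held a median of 22125, 39488 and 28027 UMIs, and megf11 was detected in 18, 25 and 57 of them at 1231, 565 and 410 CPM. In library 1 another 9 barcodes (of 1214, 0.741%) met the rule with 10% or more mitochondrial UMIs, 2 of them with megf11, and 19 (of 61699, 0.0308%) failed the limits of both depth and mitochondrial share, with a median of 423 UMIs and megf11 in 1.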

How the results depend on the processing

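The mean share of 2.47% was 1.53% where all 3 genes had to be detected and 2.08 to 2.66% with 1 library left out. Gene counts moved most where the animal was not a block: without the replicate block 189 genes were higher and 9 lower than in all other nuclei, 117 and 22 than in GABAergic ACs, and 219 and 106 than in glycinergic ACs. With no filter on low counts 699 and 446 genes were lower than in all other nuclei and in GABAergic ACs, and with the limits of library 1 for every library 626 and 318. Leaving out 1 library gave 366 to 517 higher and 226 to 739 lower genes against all other nuclei, 229 to 330 and 88 to 351 against GABAergic ACs, and 306 to 340 and 156 to 274 against glycinergic ACs. The cause was not tested. DESeq2 gave 461 and 340, 278 and 185, and 305 and 187. Of 62, 56 and 64 calls of named genes in the 3 comparisons DESeq2 made 58, 51 and 58, and the fit without the block 37, 35 and 53. The calls of slit2 against GABAergic ACs, calb2a against glycinergic ACs, and chrm2a and nfia against all other nuclei also ended under other rules or filters. The number of subsets was 4 at resolution 0.3 and 9 at resolution 0.8. Leaving 17 of the named genes out of the clustering, an alternative chosen after seeing the data, gave 6. Subsets 1 and 4 were not kept as they were. At resolution 0.3, 37 of the 57 nuclei of subset 4 joined the 181 of subset 1 in a group of 219. Without the 17 genes, 46 nuclei of subset 4 fell in a group of 105, and 128 of the 181 nuclei of subset 1 stayed together. Subsets 2, 3, 5 and 6 kept 95.2 to 96.9% of their nuclei together there. No called result changed direction under these alternatives. The cholinergic sum of library 2, 718849 UMIs, is the smallest and limits the precision of genes with low counts.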
